A study of Rattus norvegicus with 12 samples.

Results

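Lung RNA of rats labelled Ahr-KO, taken at day 4 of SuHx, was compared with lung RNA of wild-type (WT) rats kept in normoxia, taken at day 0. Of the 19230 rows of the RNA-seq table, the 15204 whose signal averaged 1 or more across the 6 libraries of these groups were compared. The comparison asks which changes of SuHx lung were seen where the target genes of the aryl hydrocarbon receptor (AhR) were not induced. All rats were of the Sprague-Dawley strain, and each group had 3 libraries of whole lung: WT in normoxia at day 0, Ahr-KO with SuHx at day 4 and WT with SuHx at day 4. SuHx joins SU5416 (Sugen), an inhibitor of the receptors for vascular endothelial growth factor (VEGF), with hypoxia, and is a rat model of pulmonary arterial hypertension. A further group held 3 libraries of WT endothelial cells (ECs) in normoxia, whose labels give day 4 while their column names give 0. The sources used here do not give the dose, the age of the animals, how the Ahr allele was made or which part of the gene it removes. No Ahr-KO lung in normoxia was analysed here, no lung with SU5416 or hypoxia alone and no normoxia lung of day 4. Genotype, drug, hypoxia and day of sampling therefore cannot be told apart in this comparison. The labels do not say whether the replicates are separate animals or repeated preparations, so the p-values measure only the spread between these samples, which may be technical. Libraries are named by their group and the number from 0 to 2 at the end of their column name.

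AhR is a transcription factor that waits in the cytoplasm in a complex with HSP90 chaperones. A ligand moves it to the nucleus, where it pairs with ARNT and binds DNA at the letters GCGTG near genes such as Cyp1a1, Cyp1b1, Ahrr and Tiparp. Cyp1a1 and Cyp1b1 encode cytochromes P450 that oxidise AhR ligands, and Ahrr encodes a repressor of AhR. In the SuHx model, loss of VEGF receptor signalling and hypoxia injure the lung endothelium, and cell division, new matrix and narrowing of small arteries follow. Signalling by bone morphogenetic proteins (BMPs) through the receptor BMPR2 keeps the lung endothelium quiet, and loss of BMPR2 function is the best known cause of heritable pulmonary arterial hypertension.

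A signal is an estimated read count that was divided by 1 scaling factor for its library. The lung libraries held 20.6 M to 22.9 M signal in all, which stood for 22.5 M to 28.6 M reads, since 1 read was worth 0.744 to 0.945. Intervals from such counts would cover counting error only. All 17 alveolar epithelial markers had a signal above 0 in all 9 lung libraries. In Ahr-KO SuHx 2, 5 of 7 rows of mitochondrially encoded genes were listed at 0, among them COX1, with 133085 and 137328 in the other Ahr-KO libraries, while ND1 had 61147. A near-0 value also stood in WT SuHx 2, where ND5 had 0.000159 beside 2775 and 3128 in the other WT SuHx libraries. In the tested rows, 7 had 1 lung library under 1 beside 50 or more in both others of its group, and 0 of these were called or are named below. Along the first principal component of the lung libraries, with 33.7% of the variance, normoxia lay between -70.25 and -23.28, and Ahr-KO SuHx between 16.51 and 55.54. The labels do not pair libraries by column number, so no pairing was used. Deviations of same-numbered normoxia and Ahr-KO SuHx libraries correlated at 0.081 to 0.22, a hint of pairing. Counts with the number as a block are given at the end.

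The promoters of 4 gene groups described below were searched for short motifs. RefSeq promoter windows of the GRCr8 assembly, from 250 bases before to 50 bases after the gene start, were searched on both strands for GCGTG (the AhR core), CCAAT, the CHR letters TTTGAA or TTCGAA, and the E2F letters TTTCGCGC, TTTGGCGC, TTTCCCGC or TTTGGCGG. A CHR is an element of genes that peak in mitosis, CCAAT boxes often lie beside it, and E2F sites are common in genes of DNA replication. The AhR core was present in 6 of 7 promoters of the AhR target list (85.7%) and in 31.1% of all 27457 promoters. No window was available for the targets Cyp1a1 and Aldh3a1, and the 6 include Slc7a5, a target that rose against normoxia. CHR letters were present in 19 of 25 promoters of the mitosis list (76.0%) and in 19.5% of all, and CCAAT in 76.0% against 37.7%. E2F letters were present in 15 of 24 promoters of the DNA replication list (62.5%) and in 2.31% of all. The same AhR core lay in 12 of 24 replication and 11 of 25 mitosis promoters. Of 17 promoters of the matrix remodelling list, 7 held the AhR core, 7 CCAAT, 0 CHR letters and 1 E2F letters. These matches are descriptions of letters, not of binding. The first 250 bases of 5 windows are shown because their genes stand for what was not induced (Ahrr and Cyp1b1, capitals mark the AhR core) and for what was (Prc1 and Cdk1, capitals mark CCAAT and CHR letters; Mcm5, capitals mark E2F letters, of which 2 matches overlap in the first run), with matches on the other strand capitalised as they read here.
Ahrr, AhR repressor, chr1:30821969-30822218, plus strand: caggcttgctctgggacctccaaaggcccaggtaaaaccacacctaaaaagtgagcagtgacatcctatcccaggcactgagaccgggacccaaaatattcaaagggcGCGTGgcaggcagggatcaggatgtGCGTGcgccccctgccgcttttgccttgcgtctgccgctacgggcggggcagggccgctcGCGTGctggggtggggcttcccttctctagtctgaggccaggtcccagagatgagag
Cyp1b1, cytochrome P450, chr6:21094315-21094564, plus strand: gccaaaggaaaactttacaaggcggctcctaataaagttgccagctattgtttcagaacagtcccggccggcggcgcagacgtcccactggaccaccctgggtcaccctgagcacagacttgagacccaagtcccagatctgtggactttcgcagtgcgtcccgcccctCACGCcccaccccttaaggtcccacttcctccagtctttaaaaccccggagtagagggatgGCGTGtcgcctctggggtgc
Prc1, spindle midzone protein, chr1:143659231-143659480, plus strand: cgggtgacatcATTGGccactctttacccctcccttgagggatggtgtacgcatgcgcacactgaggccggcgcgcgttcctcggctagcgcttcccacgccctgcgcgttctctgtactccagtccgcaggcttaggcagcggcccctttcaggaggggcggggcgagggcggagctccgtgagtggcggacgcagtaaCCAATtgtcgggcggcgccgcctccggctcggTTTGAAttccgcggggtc
Cdk1, mitotic kinase, chr20:19265043-19265292, plus strand: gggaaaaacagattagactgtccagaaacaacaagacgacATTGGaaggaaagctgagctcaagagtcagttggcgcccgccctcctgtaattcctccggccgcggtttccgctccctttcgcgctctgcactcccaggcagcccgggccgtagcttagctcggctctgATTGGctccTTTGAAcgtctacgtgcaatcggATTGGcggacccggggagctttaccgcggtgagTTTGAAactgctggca
Mcm5, replicative helicase subunit, chr19:13488563-13488812, plus strand: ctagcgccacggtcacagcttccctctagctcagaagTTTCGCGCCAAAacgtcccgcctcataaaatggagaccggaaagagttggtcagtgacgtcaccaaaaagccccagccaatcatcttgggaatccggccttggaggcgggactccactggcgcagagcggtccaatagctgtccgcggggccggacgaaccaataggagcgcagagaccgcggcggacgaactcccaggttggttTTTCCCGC

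Ahr itself was measured first. Its signal was 5565, 3103 and 3950.3 in normoxia, 1996, 3073 and 1739.6 in WT SuHx and 2515, 2523 and 1800.0 in the lungs labelled Ahr-KO. The Ahr-KO libraries lay below all normoxia libraries and among those of WT SuHx. The log2 fold change of Ahr-KO SuHx against WT normoxia was -0.86 ± 0.26 (SE), which did not pass the test (adjusted p = 0.0674), and against WT SuHx it was 0.03 ± 0.26 (adjusted p = 0.966). Over 19 alternatives its adjusted p against normoxia reached 0.212, and it passed the threshold without WT SuHx 1 and in a fit of all 12 libraries. The signal of the whole gene therefore does not tell the lungs labelled Ahr-KO from WT SuHx lungs, and where the deleted part is not known it may check nothing.

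AhR targets were not induced as a group in these lungs. Of 9 tested targets, 1 rose against WT normoxia and 4 fell, where 5.97% of all rows rose and 3.83% fell, and the median log2 fold change was -0.58 against -0.03 over all rows. Without normoxia 0 or normoxia 1, 2 were called lower. The tenth member, Cyp1a2, averaged below 1 and was not tested. Cyp1a1 had a signal of 476, 39.2 and 298 in normoxia and of 3.87, 5.31 and 5.32 in Ahr-KO SuHx lung. It was thus lower in all Ahr-KO libraries than in any normoxia library, although the normoxia libraries themselves spread widely. The fall was 30.9-fold (log2 fold change -4.95 ± 0.72, adjusted p = 0.00298). In WT SuHx lung the same row stood at 65459, 68888 and 75070.5. Aldh3a1, an aldehyde dehydrogenase, had 133, 164 and 108 in normoxia and 32.5, 12.4 and 53.2 in Ahr-KO SuHx lung, without overlap. It fell by 2.21 ± 0.45 on the log2 scale (adjusted p = 0.0152), a call lost without normoxia 0 or 1 (0.0543). Here and below, the libraries named are those whose absence alone ended a call. For rows with such libraries, the highest adjusted p over the 19 alternatives stands in brackets. Some rows without a bracket kept their call without any 1 library but lost it in another alternative. Among them, named below, were Vcam1 (highest adjusted p by limma 0.101), Rsad2 (0.0598), Car1 (0.0553), Etv5 (0.0528) and Il33 (0.0513). Brackets and libraries are given for calls against normoxia only. Calls between the SuHx groups carry none, although they also depended on single libraries, with 76 in all and 32 without WT SuHx 0. Nqo1, a quinone reductase shared with the NRF2 pathway, had 1268, 1377 and 1150.3 in normoxia and 738, 739 and 881 in Ahr-KO SuHx lung, again without overlap. It fell by 0.69 ± 0.15 (adjusted p = 0.0219), a call lost without normoxia 0 or 1 or Ahr-KO SuHx 0 or 1 (0.0849). Xdh, xanthine dehydrogenase, fell from 6138, 7553 and 4630.5 to 2969.8, 3044 and 2567 (log2 fold change -1.07 ± 0.16, adjusted p = 0.00343). WT SuHx lung had a like level of Xdh, 3045, 3005 and 3343. The member that rose was Slc7a5, an amino acid transporter, from 290.4, 332 and 351 to 708, 763 and 635 (log2 fold change 1.11 ± 0.13, adjusted p = 0.000682), with 577, 698 and 670.2 in WT SuHx lung.

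The other 4 targets did not pass the test against normoxia. Cyp1b1 had 306, 268 and 301 in normoxia and 269, 219.6 and 422 in Ahr-KO SuHx lung, groups that overlapped, with a log2 difference of 0.00 ± 0.23 (adjusted p = 0.995). Ahrr stood near the value of a few reads in both groups, with 5.57, 17.0 and 9.20 and 4.64, 7.97 and 6.08 (adjusted p = 0.349). Tiparp, an ADP-ribosyltransferase that dampens AhR, had 761, 1146 and 868 and 786, 901 and 811 (log2 difference -0.13 ± 0.18, adjusted p = 0.678). A merged row of the Ugt1a genes, which holds Ugt1a6 and encodes glucuronidating enzymes, had 549.8, 609.9 and 592 and 611, 593 and 709.7 (adjusted p = 0.510), and a change in it cannot be given to 1 of its genes. WT SuHx lung was far from both groups in these rows: Ahrr reached 1466, 2107 and 1480.4 there and Cyp1b1 13776, 20789 and 15459.7. The WT SuHx comparison shares its normoxia libraries with the Ahr-KO comparison, and the Ahr-KO libraries with the comparison between the SuHx groups, so their counts are set side by side and not counted as separate evidence. Against normoxia, 7 of the 9 targets rose and 1 fell in WT SuHx lung, where 7.04% of all rows rose and 6.39% fell. Against WT SuHx, 7 of the 9 were lower in Ahr-KO SuHx lung and 0 higher (0 also at an unadjusted p under 0.05), where 0.303% of all rows were lower and 0.197% higher. Of the 9 genes for AhR, ARNT and other members of the receptor complex, 0 passed the test against normoxia by limma, and 4 were lower at an unadjusted p under 0.05. The most abundant of these, Hsp90ab1, had 23181, 22188 and 18798 in Ahr-KO SuHx lung and 30196, 32239 and 24979 in normoxia, without overlap (adjusted p = 0.0984, and below the threshold without normoxia 2). The share of all rows at an unadjusted p under 0.05 was not counted in any comparison. List counts at that threshold, here and below, thus have no background beside them and may be near it.

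**Figure D1:**
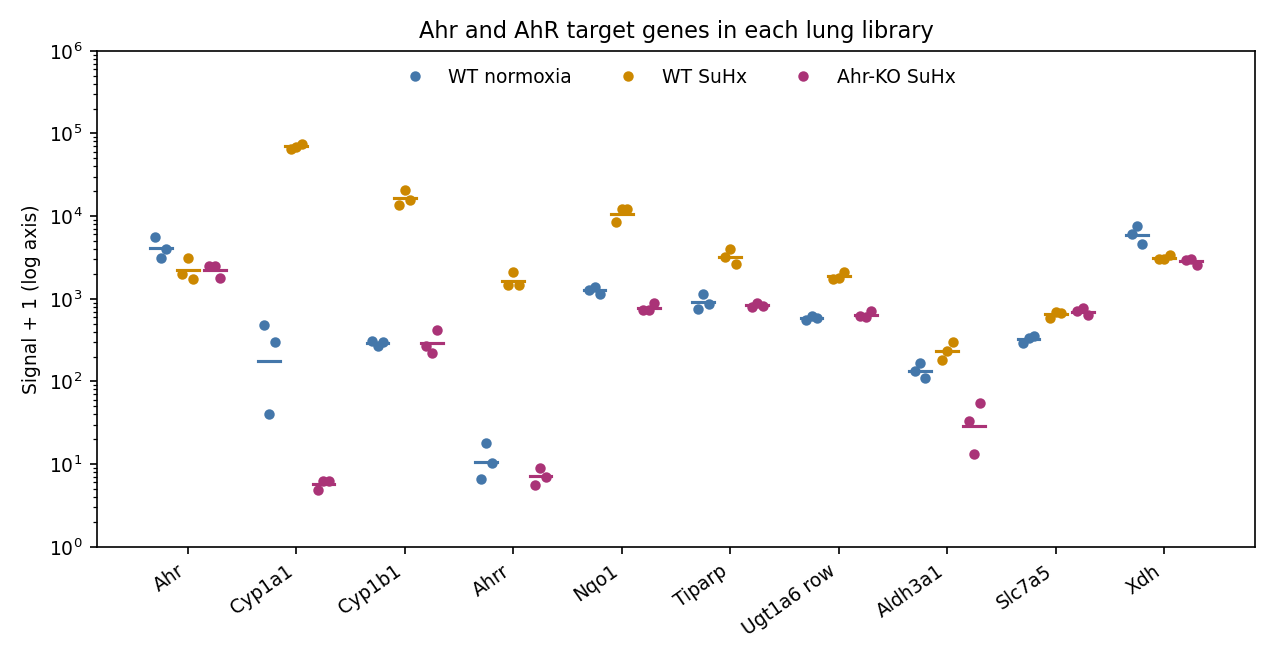
Signal plus 1 (log axis) of Ahr and the 9 tested AhR targets in each lung library, with a line at each group's mean on the log scale. WT SuHx libraries stand far above the other groups for Cyp1a1, Cyp1b1, Ahrr and Nqo1, while Ahr-KO SuHx libraries lie below WT normoxia for Cyp1a1, at 3.87 to 5.32 against 39.2 to 476, and for Nqo1, and overlap it for Cyp1b1 and Ahrr.

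Without that induction, 1490 of the 15204 rows (9.8%) differed between Ahr-KO SuHx and WT normoxia lung at an adjusted p under 0.05. Of these, 908 were higher (5.97% of all rows) and 582 lower (3.83%), shares to be set beside every list count below. At least a 2-fold change was seen in 519 of the higher and 142 of the lower rows. In WT SuHx lung against the same normoxia libraries, 2042 rows (13.4%) were called, 1070 higher and 972 lower. Between the SuHx groups 76 rows (0.5%) were called. The share of higher among called rows was 60.9% with the deposited scaling and 72.6% when each library was rescaled to the same total, a total that lacks most mitochondrial signal in Ahr-KO SuHx 2. The count depended on single libraries: it was 794 without normoxia 0, 884 without normoxia 1, 980 without Ahr-KO SuHx 0, 723 without Ahr-KO SuHx 1 and 875 without Ahr-KO SuHx 2. The rows with the smallest adjusted p were Prc1, Rpl39, Ccna2, Loxl2, Mcm5 and Tubb6, all higher.

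**Figure D2:**
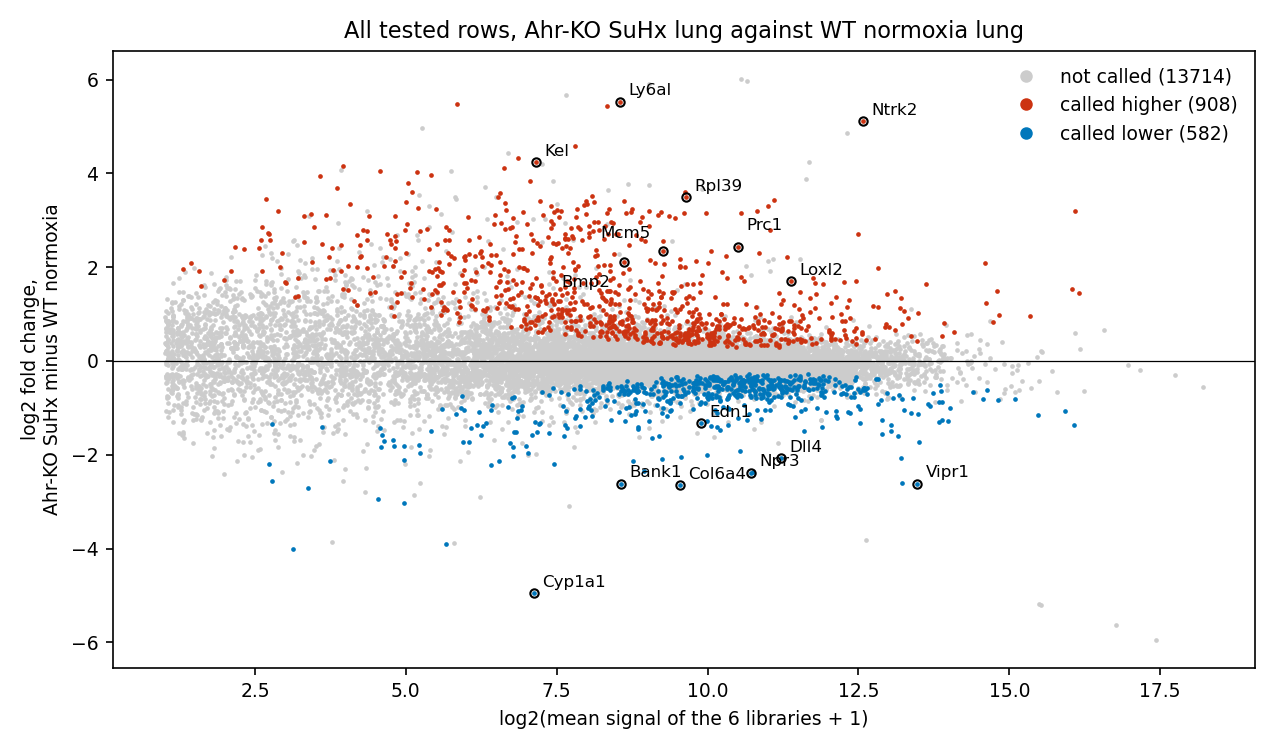
Log2 fold change of Ahr-KO SuHx against WT normoxia lung (vertical) over the log2 mean signal of the 6 libraries (horizontal), 1 point per tested row, red for 908 rows called higher, blue for 582 called lower and grey for the rest. Cyp1a1 lies lowest among the labelled rows and Ly6al highest, while grey points beyond either are rows with a wide spread, such as mitochondrial rows listed at 0 in 1 library.

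The 12 largest called rises with libraries apart included genes of red cells, of division and of the matrix. Ly6al, of the Ly6 family, had 13.5, 17.0 and 12.3 in normoxia and 685, 1014 and 495 in Ahr-KO SuHx lung. All Ahr-KO libraries were far above the rest, for WT SuHx lung had 4.73, 9.18 and 3.72, and the rise was 46.3-fold (log2 fold change 5.53 ± 0.36, adjusted p = 0.000105). Ntrk2, the receptor TrkB for brain-derived neurotrophic factor, had 644, 139.8 and 421 in normoxia and 13954, 12539 and 9105 in Ahr-KO SuHx lung. This was a rise of 34.6-fold (log2 fold change 5.11 ± 0.51, adjusted p = 0.000369), and WT SuHx lung had 7665, 9734 and 3988. A merged row of Fam64a and Pimreg, names of 1 mitotic regulator, rose from 20.5, 2.56 and 37.7 to 573, 632 and 659 (log2 fold change 5.43 ± 0.69). Mxd3, a partner of MAX in the MYC network, rose from 20.6, 1.83 and 19.2 to 209, 219 and 221 (log2 fold change 4.34 ± 0.65, adjusted p = 0.00339). Both rows were lowest in normoxia 1. Kel, the Kell blood group protein, rose from 19.9, 8.52 and 9.20 to 253, 121 and 439.9 (log2 fold change 4.24 ± 0.47), and Car1, a carbonic anhydrase of red cells, by 3.97 ± 0.71. Ffar3, a receptor for short-chain fatty acids, rose by 4.06 ± 0.68 from at most 4.60 in normoxia. Reg3b, an antimicrobial lectin, was listed at 0 in all normoxia libraries and had 18.6, 14.2 and 305 in Ahr-KO SuHx lung, with the highest value in library 2 (adjusted p = 0.0122). A further 3 of the 12 varied widely between libraries. Fcrl2, an Fc receptor-like protein, had 661, 529.6 and 101 in Ahr-KO SuHx lung and 15.9, 6.82 and 18.4 in normoxia, a call lost without normoxia 0 or 1 or Ahr-KO SuHx 0 or 1 (0.0771). Thbs4, a thrombospondin, had 46.4, 21.3 and 502 against 3.18, 0.852 and 12.3, a call lost without any 1 lung library other than normoxia 2 and Ahr-KO SuHx 1 (0.141). Mmp13, a collagenase, had 6.19, 135 and 63.8 against 3.18, 2.56 and 0, a call lost without any 1 lung library other than WT SuHx 2 and Ahr-KO SuHx 0 (0.210).

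Largest among the falls, after Cyp1a1, were a receptor, collagen, drug-metabolism and transcription genes. Vipr1, a receptor for vasoactive intestinal peptide, fell from 17481, 22184 and 18940.5 to 3896, 3729.9 and 2186, with WT SuHx lung at 2851, 3055 and 3768. That is a 6.14-fold fall (log2 fold change -2.62 ± 0.21, adjusted p = 0.000178), and no SuHx library of either genotype reached a normoxia library. Col6a4, a chain of collagen VI, fell from 1757, 1500.1 and 618 to 237, 201 and 135 (log2 fold change -2.65 ± 0.39, adjusted p = 0.00289). Bank1, a scaffold protein of B cells, fell from 781, 504 and 659.5 to 135, 95.6 and 85.1 (log2 fold change -2.61 ± 0.27, adjusted p = 0.000422), while 0 of 10 tested B and plasma cell markers passed the test by limma (0 also at an unadjusted p under 0.05). The EC libraries had Bank1 at 708, 660 and 1858, so its signal in lung cannot be given to B cells alone. Fmo2, a flavin monooxygenase abundant in lung, fell by 2.61 ± 0.38 and Cyp2e1, a cytochrome P450 that oxidises ethanol, by 2.35 ± 0.33. Their normoxia signals were uneven, with Fmo2 at 18389, 24626 and 6824 and Cyp2e1 at 779.6, 1273 and 450.2. The Ahr-KO libraries had 2243, 2431 and 2472 and 163, 137 and 149.7. The 12 largest falls were chosen among rows with libraries apart, so their lack of overlap was fixed by that choice. Over all rows, 17.9% were apart in this direction. Npr3, the clearance receptor for natriuretic peptides, fell from 2107, 3085 and 3282 to 539, 623 and 448 (log2 fold change -2.38 ± 0.23, adjusted p = 0.000288). A merged row of Abcb1a and Abcb1b, drug efflux pumps, fell by 2.36 ± 0.57, a call lost without normoxia 0 or 1 or Ahr-KO SuHx 0, 1 or 2 (0.105). Nkx2-8, a homeobox factor, fell from 148, 34.9 and 101 to 4.64, 3.54 and 5.32, a call lost without normoxia 0 (0.0612). Sorcs1, a sorting receptor, fell from 60.5, 69.0 and 32.2 to 11.6, 5.31 and 2.28 and lost its call without normoxia 0 or 1 or Ahr-KO SuHx 1 or 2 (0.114). Cpne4, a copine, fell from 49.3, 10.2 and 62.9 to 2.32, 6.20 and 2.28 and lost its call without normoxia 0 or 2 or Ahr-KO SuHx 0 or 2 (0.121).

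**Figure D3:**
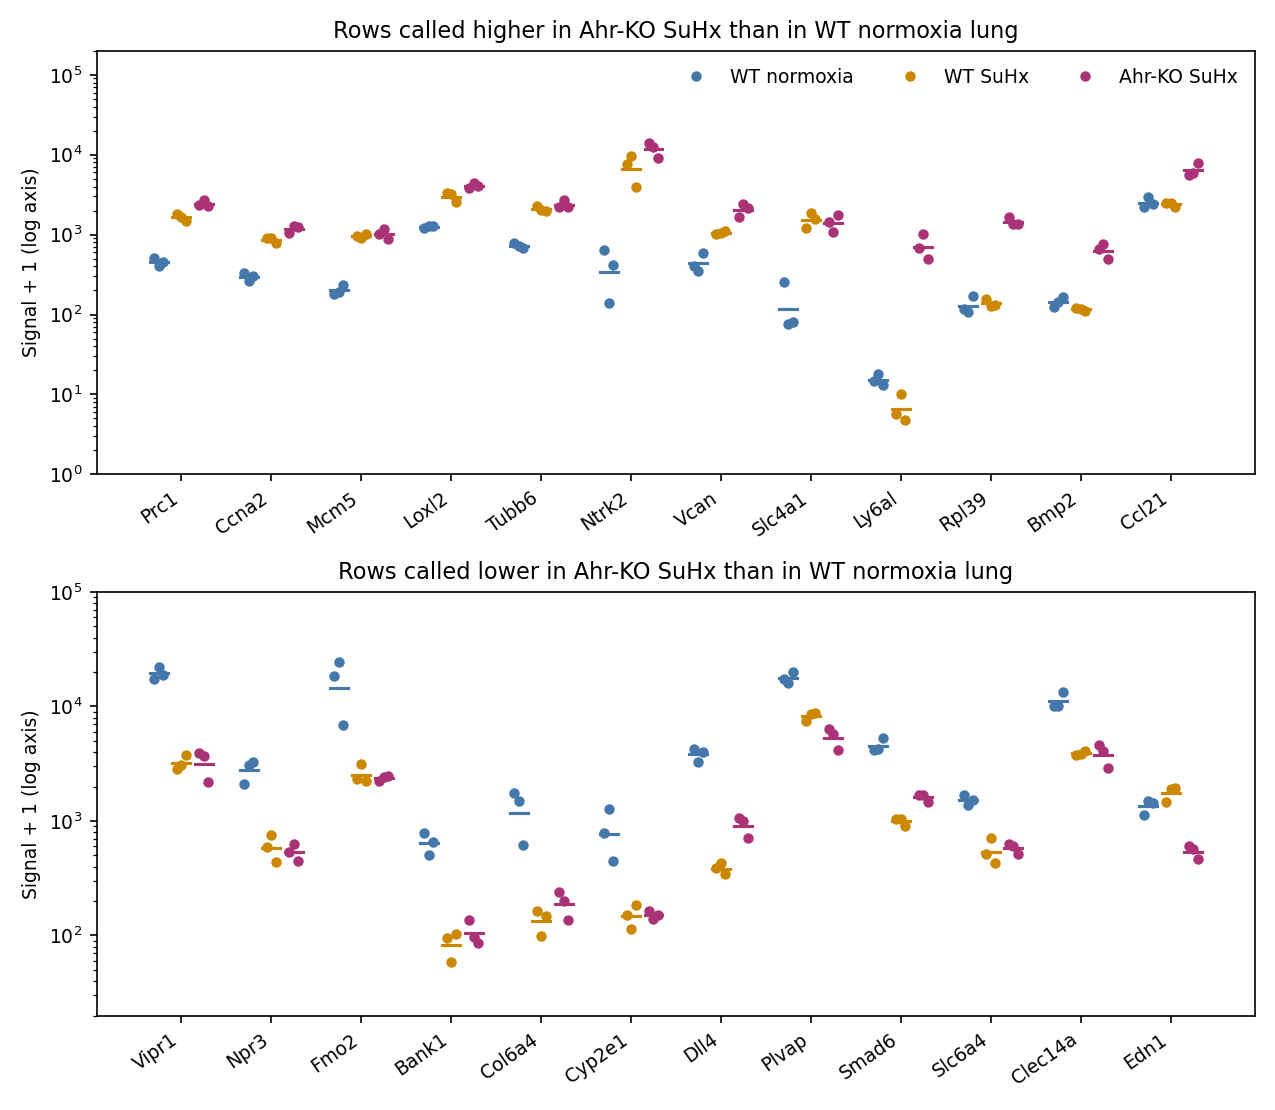
Signal plus 1 (log axis) of 12 rows called higher (top) and 12 called lower (bottom) in Ahr-KO SuHx than in WT normoxia lung, for each library, with a line at each group's mean on the log scale. WT SuHx libraries lie beside Ahr-KO SuHx for rows such as Mcm5, Vipr1 and Npr3, and beside normoxia for Rpl39, Bmp2 and Ccl21, while Edn1 is lower in Ahr-KO SuHx at 463 to 604 than in all other lung libraries.

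Genes of cell division rose together. Of 30 mitosis genes, 27 rose, 0 fell and 3 did not pass the test, with a median log2 fold change of 2.73, beside 5.97% of all rows that rose and their median of -0.03. Of 29 DNA replication genes, 25 rose and 0 fell, with a median of 1.36. In limma's test at an unadjusted p under 0.05, 28 and 26 were higher and 0 lower. With any 1 library left out, 27 to 28 mitosis and 21 to 26 replication genes rose. Prc1, which bundles microtubules of the dividing cell, had 502, 402 and 456 in normoxia and 2369.9, 2695 and 2285 in Ahr-KO SuHx lung. Every Ahr-KO library was above every normoxia library and above every WT SuHx library (1832, 1643 and 1467). The rise was 5.40-fold (log2 fold change 2.43 ± 0.12, adjusted p = 5.85e-05), and the difference from WT SuHx, 0.57 ± 0.12, did not pass the test (adjusted p = 0.0824). Cdk1, the kinase that drives entry into mitosis, rose from 208, 92.9 and 192 to 1199.7, 1488 and 1525 (log2 fold change 3.16 ± 0.27, adjusted p = 0.000178). Ccna2, cyclin A2, rose from 325, 264 and 306 to 1045, 1282 and 1252 (log2 fold change 2.00 ± 0.12, adjusted p = 9.23e-05). Bub1, a kinase of the spindle checkpoint, rose by 2.10 ± 0.15 (adjusted p = 0.000123). A further 4 genes were chosen after their values were seen. Mki67, the proliferation marker Ki-67, rose by 2.31 ± 0.23, Top2a, which untangles chromosomes, by 3.15 ± 0.31, Ccnb1, cyclin B1, by 3.16 ± 0.36 and Ube2c, which marks cyclins for destruction, by 3.53 ± 0.39.

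Replication genes had the smaller median of the division lists. Mcm5, a subunit of the replicative helicase, had 179.8, 189 and 233 in normoxia, 1016, 1185 and 881 in Ahr-KO SuHx lung and 962, 895 and 1008 in WT SuHx lung. Both SuHx groups were apart from normoxia and overlapped each other, and the log2 fold change was 2.35 ± 0.14 (adjusted p = 9.23e-05). Mcm4, of the same helicase, rose by 1.38 ± 0.12, Tk1, thymidine kinase, by 2.03 ± 0.15 and Uhrf1, which copies DNA methylation onto new strands, by 2.60 ± 0.18. Tubb6, a beta tubulin named for its small adjusted p of 9.23e-05, rose from 773, 723 and 672 to 2237, 2692 and 2225 (log2 fold change 1.72 ± 0.11). In WT SuHx lung 27 mitosis and 23 replication genes rose against the same normoxia libraries, with medians of 2.22 and 1.12. Between the SuHx groups 0 of the 59 genes of both lists passed the test by limma, while 8 mitosis and 3 replication genes were higher in Ahr-KO at an unadjusted p under 0.05. The median differences were 0.53 for mitosis and 0.10 for replication. The ECs kept in normoxia had Cdk1 at 184, 169.9 and 149.8 and Prc1 at 488, 457 and 259.6, within or near the range of normoxia lung.

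Genes of elastic fibres and matrix remodelling rose in 17 of 28 cases and fell in 0 (0 also at limma's unadjusted p under 0.05), with a median log2 fold change of 0.96. With 1 library left out, 12 to 17 rose. Loxl2, which cross-links collagen and elastin, had 1220.4, 1267 and 1298 in normoxia and 3854, 4372 and 4054 in Ahr-KO SuHx lung. The Ahr-KO values lay above all others, WT SuHx lung having 3272, 3176 and 2554, and the log2 fold change against normoxia was 1.70 ± 0.11 (adjusted p = 9.23e-05). Ltbp2, a binding protein of elastic microfibrils, rose from 6698, 6065 and 5661 to 17592, 19007 and 20489 (log2 fold change 1.63 ± 0.11, adjusted p = 0.000116). Vcan, the proteoglycan versican, rose from 403, 347 and 587 to 1671, 2418 and 2155 (log2 fold change 2.24 ± 0.20, adjusted p = 0.000202). Adamts1, a protease that cleaves versican, had 1889, 1709 and 1913 in normoxia, 2252, 2342 and 1981 in WT SuHx and 3724, 4507 and 3744 in Ahr-KO SuHx lung. The Ahr-KO libraries stood above both other groups, by a log2 fold change of 1.12 ± 0.11 against normoxia (adjusted p = 0.000296) and 0.86 ± 0.11 against WT SuHx (adjusted p = 0.00857). Chosen after their values were seen, Eln, the elastin gene, rose from 17387, 4698 and 27990.0 to 101676, 117547 and 150506 (log2 fold change 3.21 ± 0.54, adjusted p = 0.00635). Thbs2, a thrombospondin, rose by 2.56 ± 0.31, Lox, lysyl oxidase, by 1.70 ± 0.33, Fbn1, fibrillin, by 1.34 ± 0.19 and Fbln5, a fibulin of elastic fibres, by 1.30 ± 0.19.

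Collagen genes rose in 5 of 19 cases and fell in 0 (0 also at limma's unadjusted p under 0.05), with a median of 0.39. With 1 library left out, 2 rose without normoxia 1, Ahr-KO SuHx 0 or Ahr-KO SuHx 1, 3 without normoxia 0 or WT SuHx 0, and 4 to 6 otherwise. Col1a1, the main chain of fibrillar collagen, had 9834, 5590.3 and 14203 in normoxia and 36666, 37002 and 44658 in Ahr-KO SuHx lung, without overlap (log2 fold change 2.09 ± 0.29, adjusted p = 0.00229). Col5a1, a chain that starts collagen fibrils, rose from 3285, 3035 and 3151 to 6029, 6064 and 6788 (log2 fold change 0.99 ± 0.13, adjusted p = 0.00142). Of the basement membrane chains, Col4a1 rose by 0.95 ± 0.21, a call lost without normoxia 1 or Ahr-KO SuHx 0 or 1 (0.0787). Col4a2 rose by 0.84 ± 0.20, a call lost without any 1 lung library other than WT SuHx 1 and 2 and Ahr-KO SuHx 2 (0.105). Col5a3, a minor fibrillar chain, had 172, 136 and 287 in normoxia, 384, 373 and 306 in Ahr-KO SuHx and 1179, 1513 and 1492 in WT SuHx lung. Its rise against normoxia of 0.90 ± 0.25 was lost without any 1 lung library other than normoxia 2 (0.151), while it was lower than in WT SuHx by a log2 fold change of -1.97 ± 0.25 (adjusted p = 0.00920).

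Contractile genes of smooth muscle rose in part. Of 15 smooth muscle and pericyte markers, 6 rose and 1 fell, and their summed signal was 70215 to 100263 in Ahr-KO SuHx, 53054 to 62993 in normoxia and 78257 to 101676 in WT SuHx lung. Des, the intermediate filament desmin, rose from 1953, 1392 and 2354 to 5559, 5446 and 6309 (log2 fold change 1.63 ± 0.18, adjusted p = 0.000595). Tagln, an actin-binding protein, rose by 1.06 ± 0.17, Cnn1, calponin, by 1.22 ± 0.21 and Smtn, smoothelin, by 1.00 ± 0.17. Acta2, smooth muscle actin, chosen after its values were seen, had 4340.5, 2815 and 6134 in normoxia and 14117, 13078 and 7950.1 in Ahr-KO SuHx lung. Its log2 fold change was 1.43 ± 0.29 (adjusted p = 0.0147), a call lost without Ahr-KO SuHx 0 or 1 (0.0627). The member that fell, Rgs5, a pericyte regulator of G protein signalling, had 3811, 3188 and 4440.3 and 2431, 1799 and 2232, a call lost without any 1 lung library other than WT SuHx 0 and 1 (0.158). Of 12 fibroblast markers, 5 rose and 0 fell (0 also at limma's unadjusted p under 0.05). With 1 library left out, 1 rose without normoxia 1, 2 without Ahr-KO SuHx 0, 3 without normoxia 0 or Ahr-KO SuHx 1 and 4 to 6 otherwise. Dpt, the matrix protein dermatopontin, rose from 5496, 5214 and 6672 to 8518, 10132 and 11415 (log2 fold change 0.79 ± 0.15, adjusted p = 0.00981). Lum, the proteoglycan lumican, rose by 1.36 ± 0.31, highest in Ahr-KO SuHx 2, a call lost without normoxia 0 or 1 (0.0794). Meox1, a homeobox factor, rose by 1.61 ± 0.33, a call lost without normoxia 1 or Ahr-KO SuHx 0 or 1 (0.0593). The EC libraries had Meox1 at 206, 164 and 271, above every normoxia lung library, while Dpt and Lum were lower there. The rise of Meox1 therefore cannot be given to fibroblasts alone. Gli1, a target of Hedgehog signalling, rose by 1.00 ± 0.22, a call lost without normoxia 1 or Ahr-KO SuHx 0 or 1 (0.0849). In whole lung RNA, fewer cells of a type and less RNA per cell cannot be told apart, and the same holds for more.

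Red cell genes rose. Of 9 tested erythroid markers, 8 rose and 0 fell (9 and 0 at limma's unadjusted p under 0.05), with a median log2 fold change of 3.22 and a summed signal of 5242 to 8463 in Ahr-KO SuHx, 1725 to 2506 in normoxia and 6007 to 9358 in WT SuHx lung. Globin rows made up 0.70% to 1.65% of all signal in Ahr-KO SuHx lung, against 0.28% to 0.391% in normoxia and 0.97% to 1.94% in WT SuHx lung. Slc4a1, the red cell anion exchanger, rose from 254, 75.0 and 80.5 to 1447, 1090.1 and 1768 (log2 fold change 3.60 ± 0.42, adjusted p = 0.000769). Ahsp, which stabilises alpha globin, rose from 109.8, 29.8 and 54.4 to 453, 383 and 935 (log2 fold change 3.25 ± 0.48, adjusted p = 0.00327), and Epb42, of the red cell skeleton, by 2.08 ± 0.31. Alas2, the first enzyme of haem synthesis in red cells, chosen after its values were seen, rose by 1.78 ± 0.30 (adjusted p = 0.00653). All 9 had Ahr-KO libraries above every normoxia library, as did 15.2% of all rows.

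Among white cells, neutrophil markers had a median of 1.65, with 6 of 14 higher and 0 lower (11 and 0 at limma's unadjusted p under 0.05). Their summed signal was 9484 to 14070 in Ahr-KO SuHx, 2989 to 5535 in normoxia and 9766 to 14624 in WT SuHx lung. This count fell to 1 without Ahr-KO SuHx 1 and to 2 without normoxia 1 or Ahr-KO SuHx 2, and it was 3 without Ahr-KO SuHx 0. Lcn2, lipocalin 2, which binds bacterial siderophores and is also made by epithelium, rose from 1853, 1357 and 1801 to 4121, 7165 and 4785 (log2 fold change 1.65 ± 0.22, adjusted p = 0.00171). Il1r2, a decoy receptor for interleukin 1, had 28.6, 39.2 and 42.9 in normoxia, 68.1, 88.6 and 71.4 in Ahr-KO SuHx and 199.6, 187 and 248 in WT SuHx lung. It lay between the other groups: above normoxia by 1.03 ± 0.22, a call lost without normoxia 0 or Ahr-KO SuHx 1 (0.0852), and different from WT SuHx by -1.46 ± 0.22 (adjusted p = 0.0291). Ngp, a granule protein, rose by 2.60 ± 0.63, a call lost without normoxia 1 or 2 or Ahr-KO SuHx 0, 1 or 2 (0.106). The EC libraries had Il1r2 at 527, 809 and 1096 and Ngp at 837, 819 and 540, above every normoxia lung library. Lcn2 and Prtn3 were lower on average in ECs than in normoxia lung. Which cells carried these changes was not tested. Prtn3, proteinase 3, had 9.29 to 15.9 in Ahr-KO SuHx lung against 3.83 to 4.26, a call lost without normoxia 0 or 1 or Ahr-KO SuHx 1 or 2 (0.105). Of 14 monocyte and macrophage markers, 3 rose, the chains of complement C1q, and 0 rose without normoxia 0, Ahr-KO SuHx 1 or Ahr-KO SuHx 2 and 1 without normoxia 2. The median log2 fold change of the 14 was 0.29, and 9 of them were above 0. Their summed signal, in which abundant markers weigh most, went the other way. It was 217804 to 325654 in Ahr-KO SuHx against 331150 to 485924 in normoxia lung. C1qb rose from 597, 753 and 584 to 939, 1239 and 1321 (log2 fold change 0.85 ± 0.18, adjusted p = 0.0196), a call lost without normoxia 0 or Ahr-KO SuHx 1 or 2 (0.107), and WT SuHx lung had 2178, 1944 and 2917. C1qa rose by 0.81 ± 0.19, a call lost without normoxia 0, 1 or 2 or Ahr-KO SuHx 1 or 2 (0.118), and C1qc by 0.63 ± 0.17, a call lost without any 1 lung library other than normoxia 1, WT SuHx 2 and Ahr-KO SuHx 0 (0.204). C1qc was lower than in WT SuHx lung (-0.97 ± 0.17, adjusted p = 0.0453). Of 15 T and NK cell markers 0 passed the test by limma, with a median of -0.58 and 1 lower at an unadjusted p under 0.05, and 2 fell without Ahr-KO SuHx 1. The 10 B and plasma cell markers had a median of -0.29. Among 10 mast cell markers Kit, the receptor for stem cell factor, which vascular cells also express, fell from 5687, 5212 and 5147 to 3316, 2806 and 1672 (adjusted p = 0.0126), a call lost without normoxia 0 (0.0519), while 9 did not pass the test.

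Genes of the endothelial response to VEGF fell in part. Of 21 genes of the VEGF pathway and of endothelial tip cells, 6 fell and 1 rose, and 3 fell without normoxia 0, WT SuHx 0, Ahr-KO SuHx 1 or Ahr-KO SuHx 2. Without normoxia 1, 3 rose, and without normoxia 2, 2 rose. Dll4, a Notch ligand of tip cells, had 4269, 3278 and 3986 in normoxia and 1052, 1002 and 715 in Ahr-KO SuHx lung, a 4.20-fold fall (adjusted p = 0.000178). In WT SuHx lung it was lower still, at 385, 424 and 344, and the difference between the SuHx groups passed the test (1.25 ± 0.16, adjusted p = 0.0118). Plvap, of the diaphragms of endothelial pores, fell from 17397, 16104 and 20128 to 6328, 5807 and 4174 (log2 fold change -1.73 ± 0.16, adjusted p = 0.000288). Esm1, a secreted tip cell marker, fell from 249, 196 and 420.3 to 52.6, 61.1 and 64.6 (log2 fold change -2.19 ± 0.30, adjusted p = 0.00195). Vegfc, the ligand of VEGF receptor 3, rose from 394, 324 and 439 to 758, 700.5 and 638 (log2 fold change 0.86 ± 0.15, adjusted p = 0.00729). The VEGF receptors were chosen after their values were seen. Kdr, VEGF receptor 2, fell by 0.72 ± 0.20, a call lost without any 1 lung library other than normoxia 1 and Ahr-KO SuHx 0 (0.161), and Flt1, VEGF receptor 1, by 0.60 ± 0.15, a call lost without any 1 lung library other than WT SuHx 1 and 2 (0.121). Cxcr4, a chemokine receptor of tip cells and leukocytes, fell by 0.74 ± 0.20, a call lost without any 1 lung library other than normoxia 1 and WT SuHx 2 (0.206).

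The 12 Notch pathway genes were split, with 2 higher and 2 lower, where 5.97% of all rows rose and 3.83% fell. Without normoxia 0 or Ahr-KO SuHx 0, 0 of either were called. Without Ahr-KO SuHx 1 or Ahr-KO SuHx 2, 1 was higher and 0 lower, and 1 was lower without any 1 of normoxia 1, normoxia 2, WT SuHx 0 or WT SuHx 1. Hes1, a Notch target, fell by 0.91 ± 0.20, a call lost without normoxia 0 or Ahr-KO SuHx 0, 1 or 2 (0.0704). Hey1, another target, had 333, 495 and 412 in normoxia, 266, 259 and 172 in Ahr-KO SuHx and 106, 106 and 86.4 in WT SuHx lung, with an intermediate level in the Ahr-KO group. Its fall was lost without any 1 lung library other than WT SuHx 2 (0.137). Heyl, a target in smooth muscle, rose by 0.68 ± 0.14, a call lost without normoxia 0 or 1 or Ahr-KO SuHx 0 or 1 (0.0746). A merged row of the ligand Jag2 and Nudt14 rose by 0.44 ± 0.09, a call lost without normoxia 0 or Ahr-KO SuHx 0 or 2 (0.0775).

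In the BMP pathway 8 of 25 genes fell and 2 rose, and 6 to 8 fell with 1 library left out. Among the ligands, Bmp2 had 123, 144 and 166 in normoxia and 667, 751 and 492 in Ahr-KO SuHx lung. All Ahr-KO libraries were above every other lung library, WT SuHx lung having 121, 115 and 109. The rise was 4.35-fold (log2 fold change 2.12 ± 0.19, adjusted p = 0.000203), and the difference from WT SuHx was 2.43 ± 0.19 (adjusted p = 0.000402). Bmp4, another ligand, chosen after its values were seen, fell by 0.61 ± 0.12, a call lost without normoxia 0 or Ahr-KO SuHx 0 or 1 (0.0591). Among the receptors, a merged row of Bmpr2 and Fam117b went from 22637, 22887 and 20938 to 11343, 12538 and 9659.7, without overlap and at the level of WT SuHx lung (10819.5, 12679.8 and 9822), with a log2 fold change of -0.99 ± 0.14 (adjusted p = 0.00226). Acvrl1, the endothelial receptor ALK1 that pairs with BMPR2, had 16675, 16334 and 17458 in normoxia, 18179, 19972 and 18757 in WT SuHx and 10303, 9285 and 7515 in Ahr-KO SuHx lung. It was lower in the Ahr-KO group than in both others, by a log2 fold change of -0.91 ± 0.13 against normoxia (adjusted p = 0.00278) and -1.08 ± 0.13 against WT SuHx (adjusted p = 0.00758). Eng, the co-receptor endoglin, fell by 0.88 ± 0.14 (adjusted p = 0.00399), and both receptors were chosen after their values were seen. Targets and inhibitors moved in both directions. Smad6, an inhibitor that BMP signalling induces, fell from 4183, 4216 and 5293 to 1681, 1672 and 1476, while WT SuHx lung had 1050.0, 1031 and 899. Its log2 fold change was -1.50 ± 0.12 against normoxia (adjusted p = 0.000178), and the Ahr-KO level was above that of WT SuHx by 0.70 ± 0.12 (adjusted p = 0.0387). A merged row of Tmem100, an endothelial target of ALK1, and Pctp fell by 1.47 ± 0.14 (adjusted p = 0.000346). Chosen after their values were seen, the antagonist Grem1 rose by 1.98 ± 0.35, the antagonist Chrdl1 fell by 0.84 ± 0.16, and Smad7 fell by 0.60 ± 0.16, a call lost without any 1 lung library other than normoxia 1 (0.192).

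Of 19 TGF-beta and activin genes 4 rose and 3 fell, where 5.97% of all rows rose and 3.83% fell. Without Ahr-KO SuHx 1, 1 rose and 1 fell, and without Ahr-KO SuHx 2, 1 fell. Tgfb3, a TGF-beta ligand, rose from 686, 617 and 932 to 1643, 1789.7 and 1691 (log2 fold change 1.22 ± 0.15, adjusted p = 0.00104). Inhbb, a chain of activin B, fell by 0.56 ± 0.10 (adjusted p = 0.00777). Fstl3, an activin antagonist, rose by 0.69 ± 0.14, a call lost without Ahr-KO SuHx 1 (0.0602). Tgfbr3, the co-receptor betaglycan, fell by 1.00 ± 0.20, a call lost without Ahr-KO SuHx 1 or 2 (0.0653).

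Among 30 genes of vascular tone and heritable pulmonary hypertension, 7 fell, Vipr1 and Npr3 among them, and 2 rose. Over all rows, 3.83% fell and 5.97% rose, so the rises were near that share. With 1 library left out, 5 to 8 fell, while 0 rose without normoxia 0, Ahr-KO SuHx 0 or Ahr-KO SuHx 1 and 1 without normoxia 2, WT SuHx 0, WT SuHx 1 or Ahr-KO SuHx 2. Edn1, the vasoconstrictor peptide endothelin 1, had 1136, 1506 and 1446 in normoxia and 604, 564 and 463 in Ahr-KO SuHx lung. WT SuHx lung had 1465, 1888 and 1921, so that the Ahr-KO libraries lay below all other lung libraries. The log2 fold change was -1.32 ± 0.16 against normoxia (adjusted p = 0.000836) and -1.69 ± 0.16 against WT SuHx (adjusted p = 0.00161), while WT SuHx against normoxia gave 0.37 (adjusted p = 0.140). Slc6a4, the serotonin transporter, fell from 1698, 1388 and 1523 to 633, 603 and 513 (log2 fold change -1.40 ± 0.18, adjusted p = 0.00141). Ace, angiotensin converting enzyme, chosen after its values were seen, fell from 22826, 25654 and 19669 to 11366, 10567 and 6642 (log2 fold change -1.28 ± 0.23, adjusted p = 0.00891). Npr1, a receptor for natriuretic peptides, fell by 0.45 ± 0.11, a call lost without normoxia 0 or 1 or Ahr-KO SuHx 1 or 2 (0.113). Kcnk3, the channel TASK-1 that sets the resting potential of arterial muscle, rose by 0.70 ± 0.15, a call lost without normoxia 0 or 1 or Ahr-KO SuHx 0 or 1 (0.0643). Ptgis, prostacyclin synthase, rose by 0.53 ± 0.14, a call lost without any 1 lung library other than normoxia 1 and WT SuHx 2 (0.139). Npr1 and Ptgis were also chosen after their values were seen.

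Endothelial cell markers went in both directions, 5 of 22 lower and 3 higher, and their summed signal was 97577 to 115475 in Ahr-KO SuHx lung, 126978 to 135993 in normoxia and 101299 to 105825 in WT SuHx lung. Without WT SuHx 2, 8 were called lower. The part of this sum in the falls of vascular genes was not tested. Clec14a, an endothelial surface lectin, fell from 10128, 10077 and 13509 to 4621, 4055 and 2905 (log2 fold change -1.55 ± 0.18, adjusted p = 0.000682). Tek, the receptor TIE2, fell by 1.25 ± 0.17 and a merged row of Lyve1, a marker of lymphatic vessels, and rnf141 by 1.31 ± 0.18. Emcn, endomucin, a sialomucin of veins and capillaries, went the other way, from 1969.8, 2126 and 2568 to 4986, 4783 and 4725 (log2 fold change 1.13 ± 0.13, adjusted p = 0.000791), with no overlap. Gja4, the connexin 37 of arterial endothelium, chosen after its values were seen, had 1712, 1598 and 1976 in normoxia, 1464, 1298 and 1313 in WT SuHx and 2466, 2593 and 2729 in Ahr-KO SuHx lung. It was highest in the Ahr-KO libraries, by a log2 fold change of 0.56 ± 0.10 against normoxia (adjusted p = 0.00789) and 0.93 ± 0.10 against WT SuHx (adjusted p = 0.00351). Prox1, the master factor of lymphatic endothelium, also chosen after its values were seen, rose by 1.23 ± 0.32, a call lost without any 1 lung library other than normoxia 2 and WT SuHx 1 and 2 (0.131). Car4, a capillary carbonic anhydrase, fell by 0.58 ± 0.11 and the factor Sox7 by 1.22 ± 0.27, a call lost without normoxia 0, 1 or 2 or Ahr-KO SuHx 1 or 2 (0.113), both chosen after their values were seen. The EC libraries, whose summed endothelial markers reached 364769 to 433334, held several of the falling genes at levels above normoxia lung. Plvap had 57235, 62958 and 57879.8 there, Dll4 7535, 9852 and 10182, Edn1 21094, 13696 and 19091 and Npr3 10876, 9232 and 12240.2. Genes that rose were above normoxia lung there too, such as Ccl21 at 17729.6, 17550.1 and 23901, Bmp2 at 969, 907 and 716 and Emcn at 6244, 6337 and 6367. A high level in ECs thus did not go with 1 direction of change.

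Few genes of signals between cells were called. Of 28 cytokines, chemokines and adhesion molecules 3 rose and 1 fell, where 5.97% of all rows rose and 3.83% fell. The fall was thus near the share over all rows. The same shares stand beside the interferon and MHC class II counts below. Without normoxia 2, 5 rose and 2 fell, and without normoxia 1, 2 fell. Ccl21, the chemokine of lymphatic vessels that draws T cells and dendritic cells, had 2213, 2924 and 2380.4 in normoxia, 2500.1, 2515 and 2215 in WT SuHx and 5554, 5948 and 7907 in Ahr-KO SuHx lung. The Ahr-KO libraries were above both other groups, by 1.36 ± 0.15 (adjusted p = 0.000608) and 1.41 ± 0.15 (adjusted p = 0.00347) on the log2 scale. Cxcl12, a chemokine of stromal cells, rose from 3233, 2411 and 3909 to 7265, 6573 and 6986 (log2 fold change 1.15 ± 0.15, adjusted p = 0.00173), and Vcam1, an adhesion molecule, by 0.73 ± 0.14 (adjusted p = 0.0122). Il33, an alarmin of epithelium and endothelium, fell from 8138, 5323 and 7578 to 3412, 3884 and 2542 (log2 fold change -1.09 ± 0.20, adjusted p = 0.00871). Of 17 interferon-stimulated genes 2 rose, and 1 without any 1 of normoxia 0, normoxia 1, Ahr-KO SuHx 0 or the WT SuHx libraries. Rsad2, the antiviral protein viperin, rose by 1.35 ± 0.25 (adjusted p = 0.0106). Ifit1, an antiviral RNA-binding protein, had 950.4, 70.0 and 1199.8 in Ahr-KO SuHx lung and 34.2, 23.9 and 74.4 in normoxia, groups that overlapped, and its call was lost without any 1 lung library other than normoxia 2 and Ahr-KO SuHx 1 (0.138). Of 8 genes of MHC class II presentation Cd74, the invariant chain, fell by 0.62 ± 0.17, a call lost without any 1 lung library other than WT SuHx 2 (0.140), and 7 did not pass the test.

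Some genes that hypoxia induces rose at day 4. Of 32 hypoxia-induced and glycolysis genes 5 rose and 1 fell, where 5.97% of all rows rose and 3.83% fell, with a median of 0.10. With 1 library left out, 0 rose without Ahr-KO SuHx 0 or Ahr-KO SuHx 1, 1 without normoxia 1, WT SuHx 0 or Ahr-KO SuHx 2, 2 without normoxia 0 and 3 without normoxia 2. Car9, a carbonic anhydrase induced by hypoxia, had 23.9, 12.8 and 10.7 in normoxia and 48.8, 35.4 and 44.1 in Ahr-KO SuHx lung, a call lost without normoxia 1 or 2 or Ahr-KO SuHx 0, 1 or 2 (0.119). Gapdh, of glycolysis, rose by 0.70 ± 0.17, a call lost without any 1 lung library other than normoxia 0 and WT SuHx 1 and 2 (0.105), and Slc16a3, a lactate exporter, by 0.64 ± 0.16, a call lost without any 1 lung library other than normoxia 2 and WT SuHx 2 (0.139). Ldha, lactate dehydrogenase, chosen after its values were seen, rose by 0.58 ± 0.15, a call lost without any 1 lung library other than WT SuHx 1 and 2 (0.128). Epas1, the hypoxia-inducible factor HIF-2 alpha, which is abundant in endothelium, fell from 82103, 87039 and 80881 to 47627, 40859 and 32207 (log2 fold change -1.07 ± 0.21, adjusted p = 0.0140), a call lost without Ahr-KO SuHx 1 (0.0550). Of 23 subunits of oxidative phosphorylation 0 passed the test by limma, 4 were higher at an unadjusted p under 0.05, and 1 rose without normoxia 2 or WT SuHx 2.

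Stress and synthesis programmes differed by list. Of 13 NRF2 target genes, which answer oxidants, 0 passed the test by limma in Ahr-KO SuHx lung, with 1 higher and 2 lower at an unadjusted p under 0.05, and 1 fell without normoxia 2 or WT SuHx 2. The most abundant, Prdx1, a peroxiredoxin, had 3052, 3139.9 and 3558 in normoxia and 2969, 3698 and 3896 in Ahr-KO SuHx lung. In WT SuHx lung 6 of the 13 rose. Of 15 heat shock and chaperone genes 0 passed in Ahr-KO SuHx lung (0 also at limma's unadjusted p under 0.05) and 5 rose in WT SuHx lung. Hspa5, the endoplasmic reticulum chaperone BiP, had 11792, 9235 and 10356 in normoxia, 10441, 12507 and 11949 in Ahr-KO SuHx and 17699, 15862 and 18614 in WT SuHx lung. The difference between the SuHx groups did not pass the test for Hspa5 (adjusted p = 0.109) or Prdx1 (adjusted p = 0.126), and 0 members of either list passed it by limma (Nqo1 was counted with the AhR targets). At an unadjusted p under 0.05, 7 chaperone and 8 NRF2 genes were lower than in WT SuHx lung, counts without the share over all rows beside them. Of 23 cholesterol and fatty acid synthesis genes 8 rose and 1 fell in Ahr-KO SuHx lung, and 13 rose and 1 fell in WT SuHx lung. In Ahr-KO SuHx lung 3 rose without Ahr-KO SuHx 1, 4 without normoxia 0 or Ahr-KO SuHx 2 and 5 without normoxia 1, WT SuHx 0, WT SuHx 1 or Ahr-KO SuHx 0, while 4 fell without normoxia 2 and 0 without normoxia 0, normoxia 1, WT SuHx 0, WT SuHx 1, Ahr-KO SuHx 0 or Ahr-KO SuHx 1. Cyp51, lanosterol demethylase, rose from 994, 1105 and 1158 to 1716, 1771 and 2020.0 (log2 fold change 0.76 ± 0.10, adjusted p = 0.00135) and stood at 2528, 2319.6 and 2514 in WT SuHx lung. Dhcr7, of the last steps of cholesterol synthesis, rose by 0.81 ± 0.11. Hmgcs1, an early enzyme, rose by 0.72 ± 0.15, a call lost without Ahr-KO SuHx 1 (0.0640). Idi1, an isomerase of the pathway, had 542, 547 and 617, 805, 932 and 895 and 1365, 1295 and 1294 in normoxia, Ahr-KO SuHx and WT SuHx lung. Its Ahr-KO level lay between the others, above normoxia by 0.62 ± 0.10 (adjusted p = 0.00375) and different from WT SuHx by -0.59 ± 0.10 (adjusted p = 0.0355).

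Of 15 genes of the ATF4 and amino acid response 3 rose, also with any 1 library left out. The share of all rows that rose, 5.97%, stands beside this and the other counts of rises in this paragraph. Mthfd2, a mitochondrial folate enzyme, rose from 111, 105 and 185 to 291, 331 and 306 (log2 fold change 1.25 ± 0.22, adjusted p = 0.00716), Slc7a1, an arginine transporter, by 0.80 ± 0.13 and Aldh1l2, of mitochondrial folate metabolism, by 2.49 ± 0.44. Of 12 glucocorticoid-induced genes 3 rose, and 1 without normoxia 0 or Ahr-KO SuHx 2: Sgk1, a kinase, by 0.48 ± 0.07 (adjusted p = 0.00336), and the metallothioneins Mt1, by 1.12 ± 0.22, a call lost without normoxia 0 or Ahr-KO SuHx 2 (0.0733), and Mt2A, by 1.90 ± 0.51, a call lost without any 1 lung library other than normoxia 1, WT SuHx 2 and Ahr-KO SuHx 0 (0.182). Of 12 p53 targets 3 rose, and 0 without normoxia 0, normoxia 1, Ahr-KO SuHx 1 or Ahr-KO SuHx 2 and 1 without Ahr-KO SuHx 0. Cdkn1a, the cell cycle inhibitor p21, rose by 0.89 ± 0.23, a call lost without any 1 lung library other than WT SuHx 1 and 2 (0.130), Phlda3, an inhibitor of AKT, by 0.70 ± 0.15, a call lost without normoxia 0 or 1 or Ahr-KO SuHx 1 or 2 (0.220), and Eda2r, a receptor of the TNF family, by 1.16 ± 0.25, a call lost without normoxia 0 or 1 or Ahr-KO SuHx 0, 1 or 2 (0.0880). Of 19 immediate early genes 2 rose, and 4 without Ahr-KO SuHx 2: the nuclear receptor Nr4a3 by 1.65 ± 0.24 (adjusted p = 0.00272) and the AP-1 member Fosl1 by 1.06 ± 0.16 (adjusted p = 0.00426). Fosl1 had 290.2, 307 and 399 in normoxia, 329, 387 and 468 in WT SuHx and 721, 634 and 703 in Ahr-KO SuHx lung. Of 14 circadian clock genes 0 passed the test by limma, with a median of -0.67 and 5 lower at an unadjusted p under 0.05, and 5 fell without normoxia 2. Tef, a clock output factor, had 3519, 10297 and 2789 in normoxia, highest in library 1, and 2156, 2161 and 1571 in Ahr-KO SuHx lung.

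**Figure D4:**
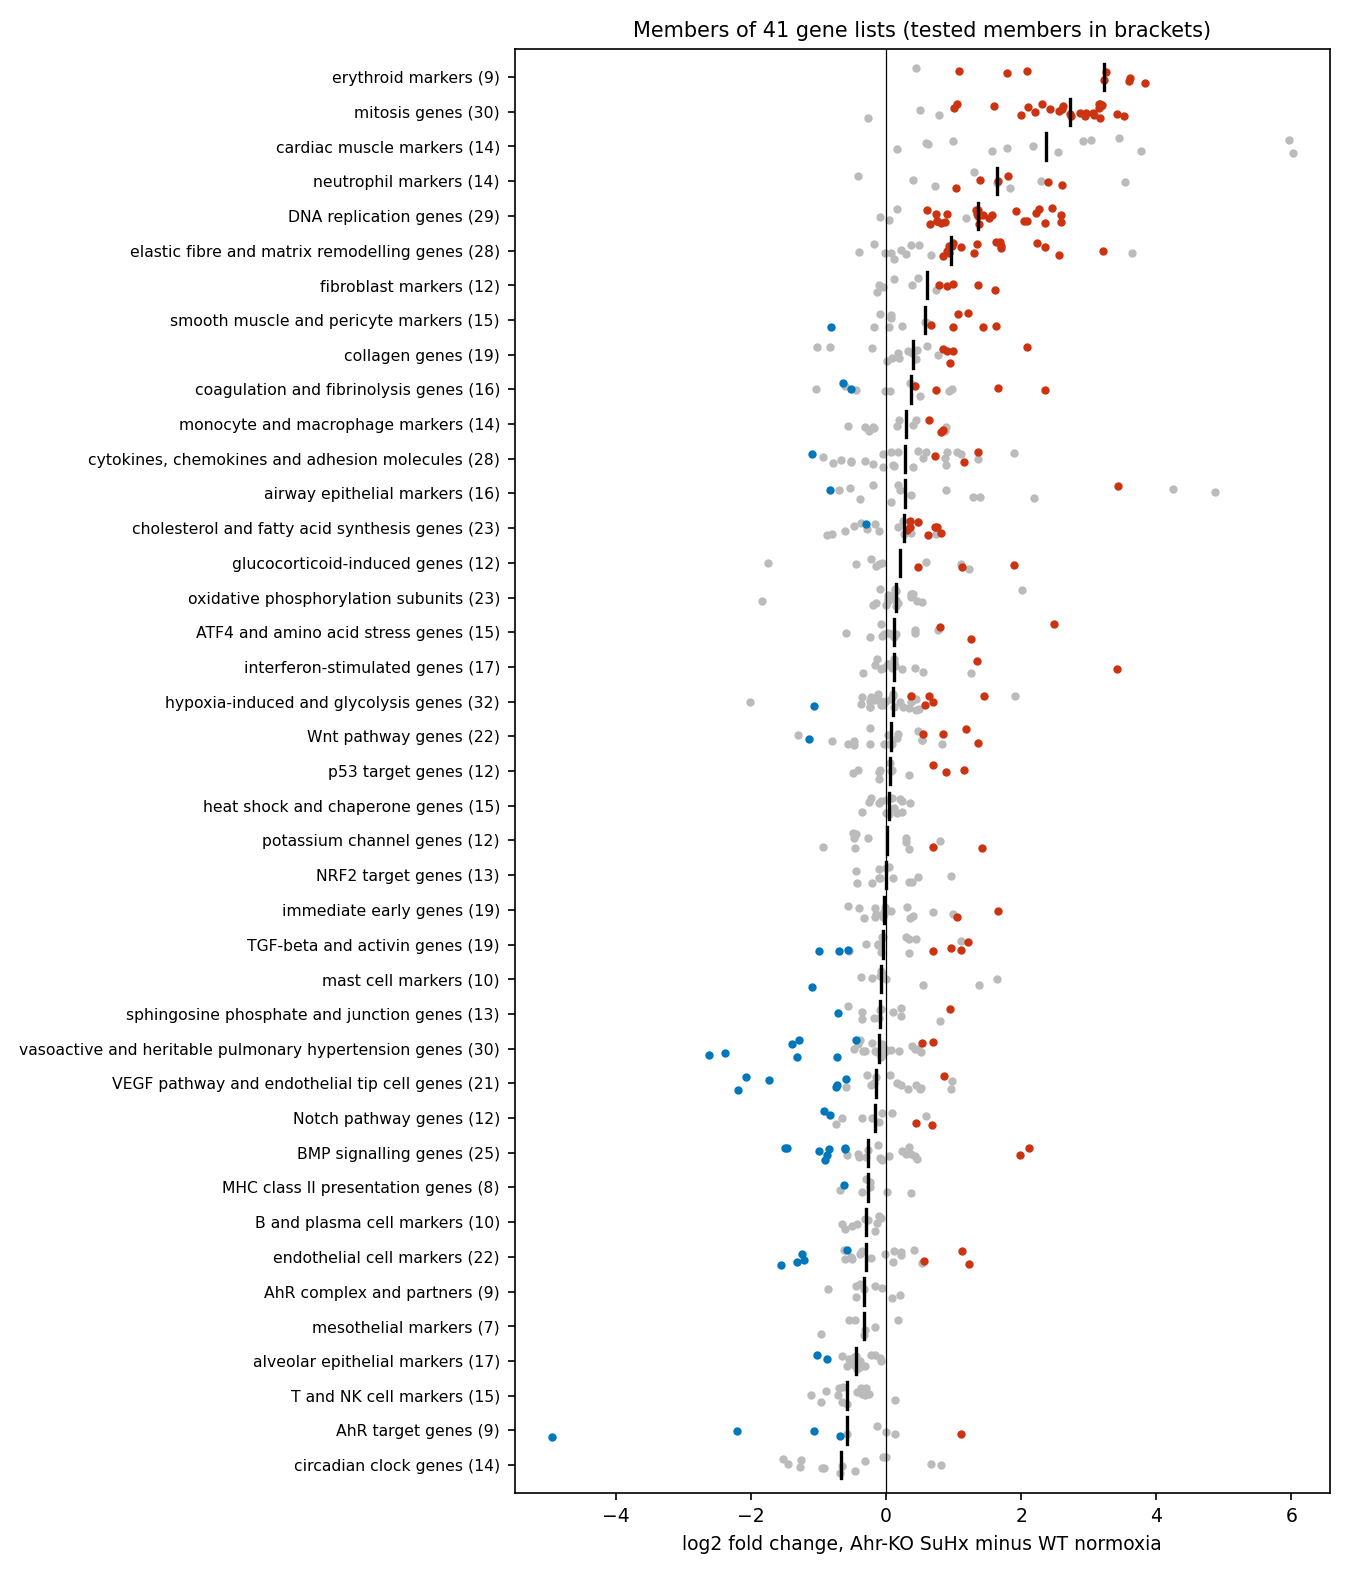
Log2 fold change of Ahr-KO SuHx against WT normoxia lung for each tested member of 41 gene lists (number tested in brackets), ordered by list median (black bar), red for members called higher, blue for called lower and grey for the rest. Erythroid (median 3.22) and mitosis genes (2.73) lie farthest right among lists with calls, cardiac muscle markers (2.37) have 0 calls, and AhR targets (-0.58) lie near the bottom.

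Alveolar epithelial markers were lower in part. Of 17, 2 fell, and 13 had Ahr-KO libraries below all normoxia libraries, where 17.9% of all rows did. With normoxia 2 left out 7 fell. Etv5, a factor of type 2 cells, fell from 2453, 3307 and 2276 to 1546, 1375 and 1411 (log2 fold change -0.87 ± 0.13, adjusted p = 0.00342). Rtkn2, rhotekin 2 of type 1 cells, fell from 9269.7, 8329.6 and 6085 to 4701, 3705 and 3214 (log2 fold change -1.02 ± 0.18, adjusted p = 0.00693). Of 16 airway epithelial markers 1 rose and 1 fell, near the 5.97% of all rows that rose and the 3.83% that fell, and 2 rose without normoxia 2, 0 rose without normoxia 0, normoxia 1, Ahr-KO SuHx 0 or Ahr-KO SuHx 2, and 0 fell without Ahr-KO SuHx 1. Sec14l3, a lipid-binding protein of airway cells, fell by 0.84 ± 0.18, a call lost without Ahr-KO SuHx 1 or 2 (0.0598). Bpifb1, a secreted defence protein of airway glands, had 2118, 1523 and 8403 in Ahr-KO SuHx lung against 369.9, 84.4 and 685, highest in Ahr-KO SuHx 2, a call lost without normoxia 0 or 1 or Ahr-KO SuHx 0 or 2 (0.0752). The summed airway markers were 285711 in that library and 154933 to 161353 in the other Ahr-KO libraries. Of 7 mesothelial markers 0 passed the test by limma, 3 were lower at an unadjusted p under 0.05, and 2 fell without normoxia 2.

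Cardiac muscle RNA was uneven across the lung libraries. The 14 cardiac markers summed to 7967, 6262 and 30088 in the Ahr-KO SuHx libraries, 1932, 1530 and 13480 in normoxia and 2823 to 3792 in WT SuHx lung. Their median log2 fold change was 2.37, with 0 calls by limma and 5 higher at an unadjusted p under 0.05, and 9 were called higher without normoxia 2. Myh6, the atrial myosin heavy chain, was listed at 0 in normoxia 1 and in all WT SuHx libraries, had 4.77 and 2880 in the other normoxia libraries and 1228, 673 and 4900.1 in Ahr-KO SuHx lung. Actc1, cardiac actin, had 903, 267 and 3389.7 in normoxia and 3648, 3346 and 6273 in Ahr-KO SuHx lung. The part of cardiac or airway RNA in any result was not tested. Without normoxia 2 and Ahr-KO SuHx 2, 1335 rows were called, among them 27 mitosis, 24 replication, 14 matrix remodelling and 6 erythroid genes, the same AhR target counts of 1 higher and 4 lower, and 0 of the macrophage markers. In that fit 9 of 14 cardiac markers were called higher and 7 of 17 alveolar markers lower, so a called cardiac difference was present without the library of the highest cardiac sum in either group.

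**Figure D5:**
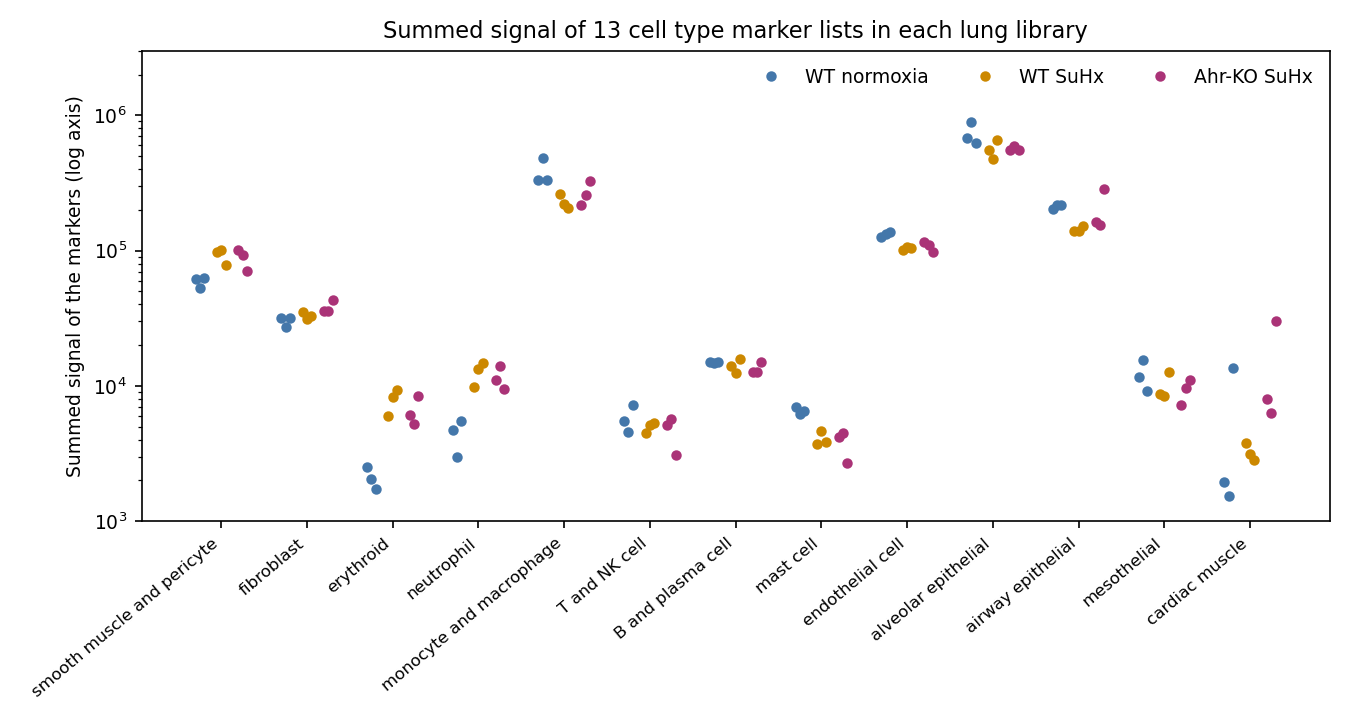
Summed signal (log axis) of the tested markers of 13 cell types in each lung library. Erythroid and neutrophil sums are higher in both SuHx groups than in normoxia, the cardiac muscle sum is uneven with 30088 in 1 Ahr-KO SuHx library and 13480 in 1 normoxia library, and T, NK and B cell sums overlap between groups.

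Some clotting, Wnt, channel and junction genes were called, where 5.97% of all rows rose and 3.83% fell. Of 16 coagulation and fibrinolysis genes 4 rose and 2 fell. Without Ahr-KO SuHx 1 or Ahr-KO SuHx 2, 2 rose and 0 fell, and 0 fell without normoxia 1 or Ahr-KO SuHx 0 and 1 without normoxia 0, WT SuHx 0 or WT SuHx 1. Serpine2, an inhibitor of thrombin, had 377, 319 and 712 in normoxia, 1205, 1446 and 1549 in Ahr-KO SuHx and 1023, 826 and 1161 in WT SuHx lung, a log2 fold change of 1.66 ± 0.27 for Ahr-KO against normoxia (adjusted p = 0.00490). Plat, the tissue plasminogen activator, rose by 0.74 ± 0.15, a call lost without Ahr-KO SuHx 1 or 2 (0.0553), and Tfpi, the tissue factor pathway inhibitor, fell by 0.52 ± 0.12, a call lost without normoxia 1 or 2 or Ahr-KO SuHx 0, 1 or 2 (0.116). Of 22 Wnt pathway genes 4 rose and 1 fell, and the fall was near the share over all rows. Without normoxia 0 or Ahr-KO SuHx 1, 2 rose. Without WT SuHx 2, 2 fell, and 0 fell without normoxia 0, normoxia 1, Ahr-KO SuHx 0 or Ahr-KO SuHx 1. Dkk3, of the Dickkopf family, rose from 1812, 1350.0 and 1904 to 3896, 4196 and 3377 (log2 fold change 1.19 ± 0.15, adjusted p = 0.00122), and Lgr6, a receptor for R-spondins, by 1.36 ± 0.23. Apcdd1, a Wnt inhibitor, rose by 0.55 ± 0.13, a call lost without normoxia 0 or Ahr-KO SuHx 0 or 1 (0.108). Notum, an enzyme that inactivates Wnt proteins, fell by 1.13 ± 0.26, a call lost without normoxia 0 or 1 or Ahr-KO SuHx 0 or 1 (0.285). Sfrp1, a secreted Wnt antagonist, had 161, 201 and 240.0 in normoxia, 147, 119 and 127 in WT SuHx and 278, 337 and 481 in Ahr-KO SuHx lung. Its rise against normoxia was lost without any 1 lung library other than normoxia 2 and Ahr-KO SuHx 0 (0.158), and its difference from WT SuHx was 1.44 ± 0.23 (adjusted p = 0.0318). Of 12 potassium channel genes 2 rose, where 5.97% of all rows did, and 1 rose without normoxia 0, normoxia 1, Ahr-KO SuHx 0 or Ahr-KO SuHx 1. These were Kcnk3 and Kcnmb1, a channel subunit of smooth muscle, which went from 190.1, 177 and 225 to 596, 522 and 476 (log2 fold change 1.43 ± 0.19, adjusted p = 0.00191). Of 13 genes of sphingosine phosphate and cell junctions Gja1, connexin 43, rose by 0.94 ± 0.15 (adjusted p = 0.00535), and a merged row of cingulin (Cgn) and Tuft1 fell by 0.71 ± 0.19, a call lost without any 1 lung library other than normoxia 2 and WT SuHx 1 and 2 (0.154).

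Some rows set Ahr-KO SuHx lung apart from both WT groups. Rpl39, a protein of the large ribosomal subunit, had 115, 107 and 169 in normoxia, 154, 125 and 131 in WT SuHx and 1682, 1347 and 1349 in Ahr-KO SuHx lung. Its log2 fold change was 3.50 ± 0.19 against normoxia (adjusted p = 8.34e-05) and 3.40 ± 0.19 against WT SuHx (adjusted p = 3.06e-05). Ribosomal protein genes have near-identical copies in the genome, so this value is uncertain, and 1 EC library of WT rats had 1098 beside 93.4 and 105 in the others. The 4 ribosomal RNA rows took 0.0143% to 0.0214% of the signal in Ahr-KO SuHx lung, 0.000864% to 0.00305% in normoxia and 0.00164% to 0.00398% in WT SuHx lung. The part of this in other results was not tested. Ly6al likewise belongs to a family of related genes, and reads of relatives may be shared. Lrrc3b, a leucine-rich repeat membrane protein, rose from 15.1, 17.0 and 23.8 to 97.5, 62.0 and 113, with 22.7, 13.8 and 22.3 in WT SuHx lung (difference between the SuHx groups 2.15 ± 0.33, adjusted p = 0.0291). Grin2c, a glutamate receptor subunit, rose by 1.22 ± 0.26 against normoxia, a call lost without normoxia 0 or Ahr-KO SuHx 0 or 1 (0.0697), and differed from WT SuHx by 1.62 ± 0.26 (adjusted p = 0.0318). Lypd1, a membrane-anchored protein that binds nicotinic receptors, had 51.7, 29.9 and 53.8 in normoxia, 318, 263 and 256 in Ahr-KO SuHx and 1068, 1162 and 787 in WT SuHx lung. It rose against normoxia by 2.64 ± 0.24 (adjusted p = 0.000252) and was lower than in WT SuHx, with a log2 fold change of -1.83 ± 0.24 (adjusted p = 0.0124).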

How the data were processed

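RNA-seq of whole lung (9 libraries) and ECs (3) was used. The authors deposited 1 table of signal values, estimated read counts divided by a factor per library, as read from the values: in the lung libraries 92.7% to 93.4% of low values were whole reads to within 0.05. Per the submitters' processing notes, the build was rn6 and FastQC was run. The sources used here do not give the aligner, counter, normalization or strand, and genes that overlap or have close copies may share reads. All columns were used (0 of other samples). Of the tested rows, 989 merge several genes.

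Rows whose signal averaged 1 or more across the WT normoxia and Ahr-KO SuHx libraries entered the test. On the scale log2(signal + 1), 1 model of group means over the 9 lung libraries was fitted (R 4.3.3, limma 3.58.1), with a trended eBayes prior and two-sided tests. Calls used a Benjamini-Hochberg adjusted p under 0.05 over all 15204 rows. Log2 fold changes are differences of means of log2(signal + 1), with SE and n = 3, and understate changes of low genes. The script was checked on simulated data.

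The members and 41 lists were chosen with earlier results of these data known. Of 702 list genes, 691 matched by symbol, 8 by synonym and 3 not, and 692 were tested. No set test was made. Named rows were the 12 largest called changes each way (mean at least 20, libraries apart), Ahr and its targets, up to 4 called members per list (or the 2 most abundant), the 6 largest differences each way from WT SuHx and the 6 smallest adjusted p. Some rows that this rule names are not reported here. Others are marked as chosen after their values were seen. Alternatives were no trend, quantile or equal-total scaling, no filter or a mean of 5, an absolute log2 fold change of 1, other sets of libraries in the fit, a pseudocount of 0.1, a replicate block and libraries left out.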

Additional observations from a re-analysis of the deposited data

Results flagged for a closer look

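These rows were flagged because their level at day 4 of SuHx differed between Ahr-KO and WT lung by the test of that difference (limma, 3 libraries per group, adjusted p under 0.05). Of the 76 rows that passed this test, only some are listed here, and calls that single libraries ended are not marked. Values are log2 fold changes of Ahr-KO SuHx against WT SuHx lung. Lower in Ahr-KO were the AhR targets Cyp1a1 (-13.55), Ahrr (-7.87), Cyp1b1 (-5.81), Nqo1 (-3.78), Aldh3a1 (-3.02), Tiparp (-1.94) and the merged Ugt1a6 row (-1.56). Vascular, matrix and other rows that were lower were Col5a3 (-1.97), Lypd1 (-1.83), Edn1 (-1.69), Acvrl1 (-1.08), Plaur, the urokinase receptor (-1.49), Il1r2 (-1.46), C1qc (-0.97) and Idi1 (-0.59). Higher in Ahr-KO were Ly6al (6.75), Rpl39 (3.40), Bmp2 (2.43), Lrrc3b (2.15), Grin2c (1.62), Sfrp1 (1.44), Ccl21 (1.41), Dll4 (1.25), Gja4 (0.93), Adamts1 (0.86) and Smad6 (0.70). Plaur was not called against normoxia (0.50 ± 0.26, adjusted p = 0.244).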

How the results depend on the processing

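Of the counts of called rows, Ahr-KO SuHx against WT normoxia (1490) was 661 where calls also needed a 2-fold change, and ran from 723 (without Ahr-KO SuHx 1) to 1894 (without normoxia 2) when 1 lung library was left out. WT SuHx against WT normoxia (2042) was 741 with that requirement and ran from 858 (without WT SuHx 0) to 2386 (without Ahr-KO SuHx 2). Ahr-KO SuHx against WT SuHx (76) was 46 without trend and 124 with all 12 libraries, and ran from 32 (without WT SuHx 0) to 102 (without normoxia 2). A left-out library leaves fewer samples, and the cause of the other shifts was not tested. With the column number as a replicate block, 2175, 3382 and 81 rows were called in the same order. Deviations of same-numbered normoxia and Ahr-KO SuHx libraries correlated at 0.081 to 0.22, below 0.1 for 1 of 3 numbers, and others at -0.20 to 0.067. Each of these 6 libraries correlated best with its own number, a hint from the data and not from the design. No called named row changed sign, while some uncalled rows near 0, such as Cyp1b1, did. Over named rows and alternatives, 3678 values stayed on their side of the threshold, 632 lost a call and 10 gained one. Depth limits rows near the value of a few reads.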
